A study of Homo sapiens with 8 samples.

Results

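The genes described here encode the subunits of integrins and laminins. They were taken as every probe set (a group of array probes that reads 1 transcript region) whose only gene symbol in the platform annotation is an integrin alpha or beta subunit or a laminin alpha, beta or gamma subunit. This gave 68 probe sets of 33 genes, out of 22277 probe sets and 11963 singly named genes on the arrays. Of the 33 genes, 16 are integrin alpha, 7 integrin beta, 4 laminin alpha, 4 laminin beta and 2 laminin gamma genes. ITGA11, ITGB6 and LAMA3 had no probe set under the rule and were not analysed here.

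The data are 8 Affymetrix arrays from 4 human lines established from ovarian cancer: OVCAR-3, CAOV-3, DOV-13 and SKOV-3. A line has 1 array of cells given pI:pC (polyriboinosinic:polyribocytidylic acid), an artificial double-stranded RNA used to imitate virus infection, and 1 array of untreated cells. All cells shared 1 medium with fetal bovine serum. The labels tie no dose and no time of exposure to any array, and precision is limited by having 8 arrays in all. All levels below are deposited log2 values made by RMA, which corrects background, normalizes the arrays and reduces each probe set to 1 value.

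Integrins are receptors of 1 alpha and 1 beta chain that bind the extracellular matrix or other cells and couple them to the actin cytoskeleton. Laminins are trimers of an alpha, a beta and a gamma chain that form the sheet of basement membranes, and several integrins bind them. In ovarian carcinoma, integrins are known for the attachment of tumour cells to the peritoneal lining and its matrix.

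The interferon-induced genes IFIT1, MX1, ISG15 and IFI44L were higher with pI:pC by 1.99 to 2.89 on the log2 scale in CAOV-3 and by 3.20 to 5.52 in OVCAR-3, and none of the 4 differed by 1 or more in SKOV-3 or DOV-13. Of 9 epithelial and ovarian carcinoma marker genes, 6 met the level rule described below in SKOV-3, 5 in DOV-13, 7 in CAOV-3 and 9 in OVCAR-3. The keratin genes KRT8, KRT18 and KRT19 were above 10 on all arrays, but KRT7 (209016_s_at) was lowest in SKOV-3 (7.54 with pI:pC, 7.51 untreated) and EPCAM lowest in DOV-13 (5.94 with pI:pC, 5.42 untreated). MUC16, which encodes CA125, was at 9.52 with pI:pC and 9.59 untreated in OVCAR-3 and between 4.05 and 5.38 in the other lines. None of 7 leukocyte probe sets reached the array median on both arrays of a line. CD14 was nevertheless highest in CAOV-3, with 6.15 with pI:pC and 7.06 untreated, the latter above that array's median of 6.24. The mesenchymal filament gene VIM had levels of 13.58 and 13.60 in SKOV-3, 13.49 and 13.49 in DOV-13, 7.23 and 7.53 in CAOV-3 and 5.80 and 5.30 in OVCAR-3, with the pI:pC array first in each pair. CDH1 (E-cadherin, 201131_s_at) had 9.41 to 9.70 on the CAOV-3 and OVCAR-3 arrays and 3.58 to 3.96 on the SKOV-3 and DOV-13 arrays. The arrays of 1 line correlated at 0.992 to 0.997 over all probe sets, and arrays of different lines at 0.897 to 0.947.

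RMA levels carry no detection call, so a level rule stood in for one: a probe set at or above the array median (6.19 to 6.30 on the log2 scale) on both arrays of a line. In SKOV-3, 20 of the 68 probe sets met it (29.4%), against 48.6% of all 22215 probe sets that are not array controls. The counts were 20 in DOV-13 (48.9% of all), 22 in CAOV-3 (48.6% of all) and 21 in OVCAR-3 (48.8% of all). By gene, 15 members met the rule in SKOV-3, 15 in DOV-13, 17 in CAOV-3 and 15 in OVCAR-3.

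The genes at or above the median in every line were 12: the integrin genes ITGB1, ITGA3, ITGA5, ITGA6, ITGAV, ITGAE and ITGB5, and the laminin genes LAMA5, LAMB1, LAMB2, LAMB3 and LAMC1. Another 9 met the rule in some lines. ITGA2 did so in DOV-13 and CAOV-3, ITGA4 in DOV-13, ITGB2 in CAOV-3, ITGB4 in SKOV-3 and CAOV-3, and ITGB8 in OVCAR-3. ITGA7 did so in DOV-13, CAOV-3 and OVCAR-3, ITGA10 and ITGB3 in SKOV-3, and ITGA2B in CAOV-3 and OVCAR-3. The platelet genes PF4 (6.27 to 6.65), GP9 (6.13 to 6.57) and GP1BA (6.24 to 6.47) lay at like levels on these arrays, so a level near the median does not show expression. This holds for ITGA10, ITGB3 and LAMB2 in SKOV-3, ITGA2, ITGA7 and the untreated LAMB3 level in DOV-13, ITGA2B, ITGB2 and the untreated ITGA5 level in CAOV-3, and ITGA2B, ITGA5 and ITGA7 in OVCAR-3.

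The remaining 12 genes met the rule in no line. They include ITGAL (4.33 to 4.66), ITGAM (3.93 to 5.71 over its probe sets), ITGAX (5.25 to 5.76) and ITGB7 (5.70 to 6.02), subunits known from leukocytes. The others were ITGA1 (3.47 to 3.91), ITGA8 (4.02 to 4.25), ITGA9 (4.83 to 5.12), LAMA1 (4.26 to 4.64), LAMA2 (3.50 to 5.42), LAMA4 (3.52 to 5.45), LAMB4 (3.41 to 4.39) and LAMC3 (5.44 to 5.98). Of the laminin alpha genes measured, LAMA5 alone met the rule. Over all 8 arrays, 37 of the 68 probe sets were below the median on every array and 16 at or above it on every array.

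**Figure D1:**
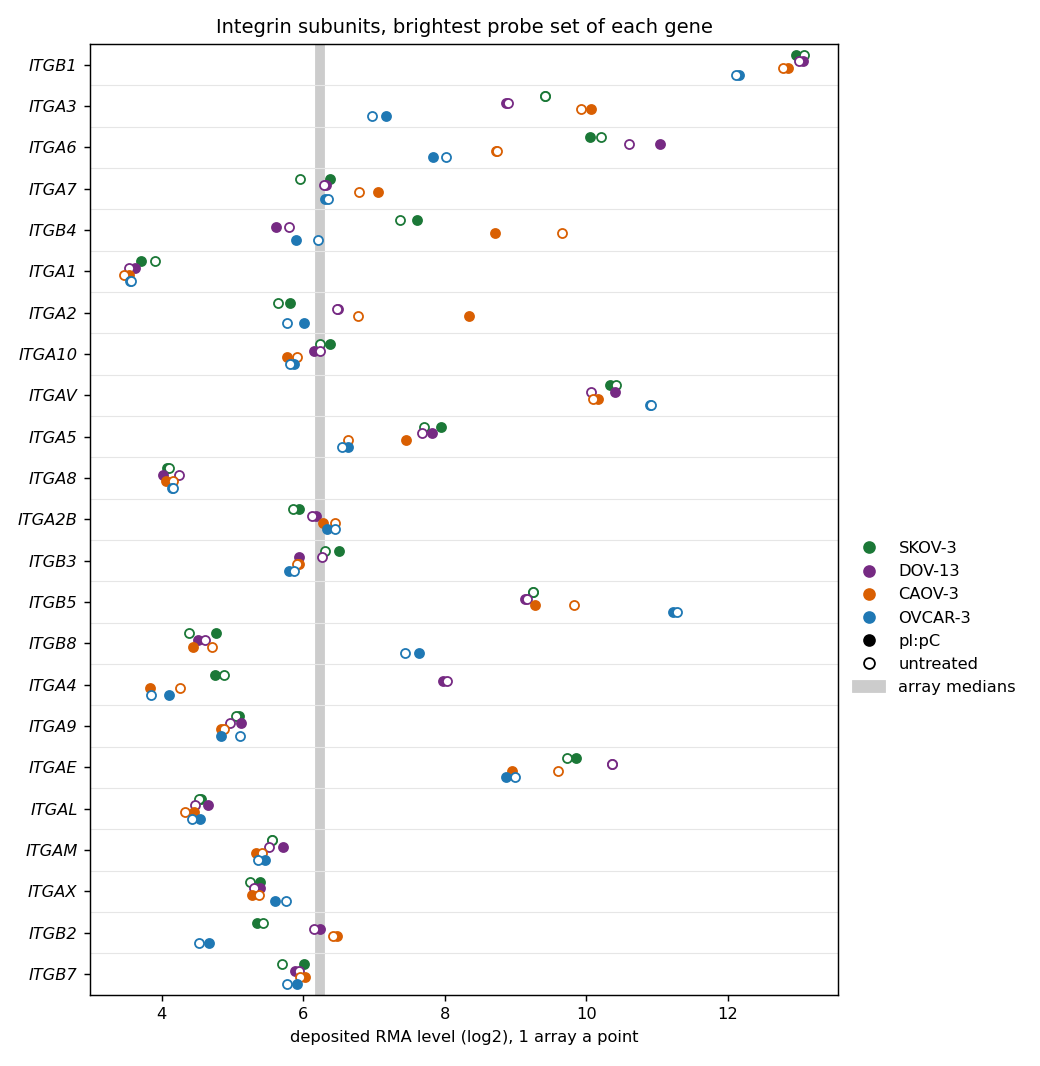
Deposited log2 level of each integrin gene (its brightest probe set) on each of the 8 arrays, with lines as colours, pI:pC arrays filled and untreated arrays open, and the array medians (6.19 to 6.30) as a grey band. ITGB8 in OVCAR-3 (7.63 with pI:pC, 7.45 untreated) and ITGA4 in DOV-13 (7.98 with pI:pC, 8.03 untreated) lie apart from the other lines.

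Limma's F test for differences among the 4 lines, with treatment as a term, called 41 of the 68 probe sets (60.3%) at a Benjamini-Hochberg adjusted p under 0.05, against 65.5% of all probe sets, a share near that of the array as a whole. The line means of a member spanned a median of 0.47 on the log2 scale, against 0.64 over all probe sets. These p-values measure the spread of the differences between pI:pC and untreated arrays over the lines, since the arrays of a line are not labelled as replicates. A probe set was called highest (or lowest) in a line when its differences from all 3 other lines passed and were at least 1 on the log2 scale. By this rule 5 members were highest in DOV-13 (1.59% of all probe sets), 4 in CAOV-3 (3.15% of all), 5 in OVCAR-3 (2.75% of all) and 0 in SKOV-3 (1.31% of all). As lowest, 1 member was called in CAOV-3 (1.61% of all), 1 in OVCAR-3 (1.79% of all), 0 in SKOV-3 (1.13% of all) and 0 in DOV-13 (0.788% of all).

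ITGB1, the beta chain shared by most matrix-binding integrins, was well above the median in every line. Its probe set 211945_s_at had 12.97, 13.07, 12.86 and 12.15 on the pI:pC arrays (in the order of lines SKOV-3, DOV-13, CAOV-3, then OVCAR-3), and 13.08, 13.00, 12.79 and 12.11 on the untreated arrays. The sentences below keep that order of lines. OVCAR-3 was lower than each other line on both arrays, with differences of 0.89 for SKOV-3 minus OVCAR-3, 0.90 for DOV-13 minus OVCAR-3 and 0.69 for CAOV-3 minus OVCAR-3 (adjusted p = 0.000113, 0.000106 and 0.00046). The 4 other ITGB1 probe sets lay between 3.27 and 4.29 on all arrays.

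Among the laminin-binding subunits, ITGA3, ITGA6 and ITGB4 differed most between lines. ITGA3, whose product binds laminins with the beta 1 chain, had 9.41, 8.87, 10.07 and 7.17 on the pI:pC arrays and 9.42, 8.89, 9.93 and 6.97 on the untreated arrays. It was lowest in OVCAR-3, with -2.93 for OVCAR-3 minus CAOV-3, -2.34 for OVCAR-3 minus SKOV-3 and -1.81 for OVCAR-3 minus DOV-13 (adjusted p = 3.64e-07, 1.05e-06 and 3.88e-06). On both arrays of OVCAR-3 the level was below that of every array of the other lines.

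ITGA6, whose product pairs with beta 1 or beta 4, had 10.06, 11.05, 8.72 and 7.84 on the pI:pC arrays and 10.22, 10.61, 8.74 and 8.02 on the untreated arrays (201656_at). The order was DOV-13, SKOV-3, CAOV-3, OVCAR-3, and every neighbouring step passed, with 0.69 for DOV-13 minus SKOV-3, 1.41 for SKOV-3 minus CAOV-3 and 0.80 for CAOV-3 minus OVCAR-3 (adjusted p = 0.00675, 0.000159 and 0.00324). The second probe set, 215177_s_at, gave the same order. No array of a line overlapped those of another line in either probe set.

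ITGB4, the hemidesmosome beta chain that pairs with alpha 6 alone, had 7.60, 5.62, 8.72 and 5.91 on the pI:pC arrays and 7.36, 5.80, 9.65 and 6.22 on the untreated arrays (204990_s_at). It was highest in CAOV-3, by 1.70 over SKOV-3, 3.12 over OVCAR-3 and 3.47 over DOV-13 (adjusted p = 0.000553, 2.16e-05 and 1.24e-05). DOV-13 and OVCAR-3 did not differ beyond the spread (DOV-13 minus OVCAR-3 -0.35, adjusted p = 0.27). Probe sets 204989_s_at and 211905_s_at were also highest in CAOV-3, while 214292_at lay between 4.90 and 5.26 everywhere. ITGA7, a laminin-binding alpha chain known from muscle, had 6.37, 6.32, 7.06 and 6.32 on the pI:pC arrays and 5.96, 6.30, 6.79 and 6.36 on the untreated arrays (216331_at), close to the array median. CAOV-3 was the higher line, by 0.76 over SKOV-3, 0.62 over DOV-13 and 0.59 over OVCAR-3 (adjusted p = 0.00155, 0.00458 and 0.00574).

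Of the collagen-binding alpha chains, ITGA2 was above the median in DOV-13 and CAOV-3, ITGA10 near it and ITGA1 below it. ITGA2 had 5.81, 6.49, 8.34 and 6.01 on the pI:pC arrays and 5.65, 6.47, 6.77 and 5.77 on the untreated arrays. It was highest in CAOV-3, by 1.08 over DOV-13, 1.67 over OVCAR-3 and 1.83 over SKOV-3 (adjusted p = 0.0306, 0.00412 and 0.00254). On the untreated arrays alone CAOV-3 had 6.77 and DOV-13 6.47, and ITGA2 was no longer highest in CAOV-3 when either OVCAR-3 array or the pI:pC array of DOV-13 or CAOV-3 was left out.

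ITGAV, ITGA5 and their beta partners bind ligands with an RGD motif, such as fibronectin and vitronectin. ITGAV had 10.34, 10.40, 10.17 and 10.90 on the pI:pC arrays and 10.42, 10.07, 10.10 and 10.91 on the untreated arrays. OVCAR-3 was higher than the other lines, by 0.52 over SKOV-3, 0.67 over DOV-13 and 0.77 over CAOV-3 (adjusted p = 0.00636, 0.00182 and 0.000845), and the other 3 lines did not separate. ITGA5, the fibronectin receptor alpha chain, had 7.95, 7.82, 7.46 and 6.64 on the pI:pC arrays and 7.71, 7.68, 6.63 and 6.54 on the untreated arrays. SKOV-3 and DOV-13 did not differ beyond the spread (SKOV-3 minus DOV-13 0.08, adjusted p = 0.751), nor did CAOV-3 and OVCAR-3 (CAOV-3 minus OVCAR-3 0.45, adjusted p = 0.0661), while DOV-13 exceeded CAOV-3 by 0.70 (adjusted p = 0.0114).

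ITGB5 and ITGB8, both partners of alpha V, were highest in OVCAR-3. ITGB5 (201125_s_at) had 9.24, 9.14, 9.27 and 11.22 on the pI:pC arrays and 9.25, 9.16, 9.82 and 11.28 on the untreated arrays. OVCAR-3 exceeded CAOV-3 by 1.70, SKOV-3 by 2.01 and DOV-13 by 2.11 (adjusted p = 4e-05, 1.7e-05 and 1.32e-05). Probe sets 201124_at and 214020_x_at were highest in OVCAR-3 as well, and 214021_x_at lay between 3.60 and 4.29.

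ITGB8, whose product with alpha V is known to activate latent TGF-beta, had 4.77, 4.52, 4.45 and 7.63 on the pI:pC arrays and 4.39, 4.61, 4.72 and 7.45 on the untreated arrays (211488_s_at). OVCAR-3 was above each other line by 2.96 to 2.98 (adjusted p = 3.3e-06 to 3.38e-06), and among the other 3 lines the pairs had adjusted p = 0.942 to 0.99. The second probe set, 205816_at, gave 7.19 on the pI:pC and 7.21 on the untreated OVCAR-3 array and at most 3.94 elsewhere. ITGB3, another beta chain of alpha V and that of platelet alpha IIb, had 6.51, 5.94, 5.94 and 5.80 on the pI:pC arrays and 6.31, 6.27, 5.91 and 5.88 on the untreated arrays (204626_s_at). In this probe set SKOV-3 exceeded CAOV-3 by 0.49 and OVCAR-3 by 0.57 (adjusted p = 0.0171 and 0.00803) but not DOV-13 (0.31, adjusted p = 0.0959). The other ITGB3 probe sets were below the median on every array. Among them, 204627_s_at had 5.49 with pI:pC and 5.72 untreated in SKOV-3, against 4.37 to 4.99 in the other lines. With a least difference of 0.5 it was called highest in SKOV-3. ITGA2B, the alpha IIb chain, was at 5.86 to 6.45 for 206493_at and at 3.49 to 4.90 for its other probe sets.

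ITGA4, the alpha chain of the receptor for VCAM-1 and fibronectin, was highest in DOV-13. Its probe set 213416_at had 4.76, 7.98, 3.84 and 4.11 on the pI:pC arrays and 4.89, 8.03, 4.26 and 3.85 on the untreated arrays. DOV-13 exceeded SKOV-3 by 3.18, CAOV-3 by 3.96 and OVCAR-3 by 4.02 (adjusted p = 2.15e-06, 7.45e-07 and 6.9e-07). Both other ITGA4 probe sets were highest in DOV-13 too. ITGB7, its other beta partner, and the related ITGA9 were below the median in all lines.

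The leukocyte beta chain ITGB2 had 5.35, 6.24, 6.48 and 4.68 on the pI:pC arrays and 5.43, 6.15, 6.42 and 4.54 on the untreated arrays. CAOV-3 and DOV-13 did not differ beyond the spread (CAOV-3 minus DOV-13 0.26, adjusted p = 0.0535), and CAOV-3 was above SKOV-3 by 1.06 and above OVCAR-3 by 1.84 (adjusted p = 4.8e-05 and 2.82e-06). Its alpha partners ITGAL, ITGAM and ITGAX stayed below the median on every array. ITGAE, which in lymphocytes pairs with beta 7 and binds E-cadherin, had 9.85, 10.36, 8.95 and 8.86 on the pI:pC arrays and 9.73, 10.37, 9.61 and 8.99 on the untreated arrays. DOV-13 exceeded SKOV-3 by 0.58 (adjusted p = 0.0282), and CAOV-3 and OVCAR-3 did not separate (CAOV-3 minus OVCAR-3 0.35, adjusted p = 0.147).

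Of the laminin chains, LAMA5 forms laminins of the mature epithelial basement membrane. It had 8.18, 7.20, 9.38 and 8.97 on the pI:pC arrays and 8.15, 7.28, 9.33 and 8.94 on the untreated arrays, with no overlap between lines. Every step of the order CAOV-3, OVCAR-3, SKOV-3, DOV-13 passed, with 0.40 for CAOV-3 minus OVCAR-3, 0.79 for OVCAR-3 minus SKOV-3 and 0.93 for SKOV-3 minus DOV-13 (adjusted p = 0.00594, 0.000158 and 6.68e-05).

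LAMB1, the beta chain of the widespread laminins, was highest in DOV-13. It had 8.50, 10.46, 9.30 and 8.47 on the pI:pC arrays and 8.78, 10.53, 8.91 and 8.38 on the untreated arrays (201505_at). DOV-13 exceeded CAOV-3 by 1.39, SKOV-3 by 1.85 and OVCAR-3 by 2.07 (adjusted p = 0.000152, 3.27e-05 and 1.85e-05), and 211651_s_at was highest in DOV-13 too. LAMB2, which replaces beta 1 in some laminins, spanned 0.42 over the line means, and the one pair that passed was OVCAR-3 minus SKOV-3 (0.42, adjusted p = 0.00735).

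LAMB3, a laminin beta chain known from the anchorage of epithelia at hemidesmosomes, had 8.58, 6.76, 8.56 and 7.16 on the pI:pC arrays and 8.69, 6.28, 7.68 and 7.21 on the untreated arrays. SKOV-3 and CAOV-3 did not differ beyond the spread (SKOV-3 minus CAOV-3 0.52, adjusted p = 0.099), CAOV-3 exceeded OVCAR-3 by 0.93 and OVCAR-3 exceeded DOV-13 by 0.66 (adjusted p = 0.0102 and 0.0445). LAMB3 met the level rule in all 4 lines, ITGB4 in SKOV-3 and CAOV-3 alone.

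LAMC1, the gamma chain of most laminins, was lowest in CAOV-3. Its probe set 200771_at had 11.47, 10.96, 8.38 and 10.42 on the pI:pC arrays and 11.32, 10.82, 8.25 and 10.42 on the untreated arrays. The difference was -3.08 for CAOV-3 minus SKOV-3, -2.57 for CAOV-3 minus DOV-13 and -2.11 for CAOV-3 minus OVCAR-3 (adjusted p = 1.87e-07, 4.34e-07 and 1.13e-06). The other probe set, 200770_s_at, was lower in CAOV-3 as well, but its difference from OVCAR-3 was -0.45 (adjusted p = 0.00565) and under the size that the rule asks for.

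**Figure D2:**
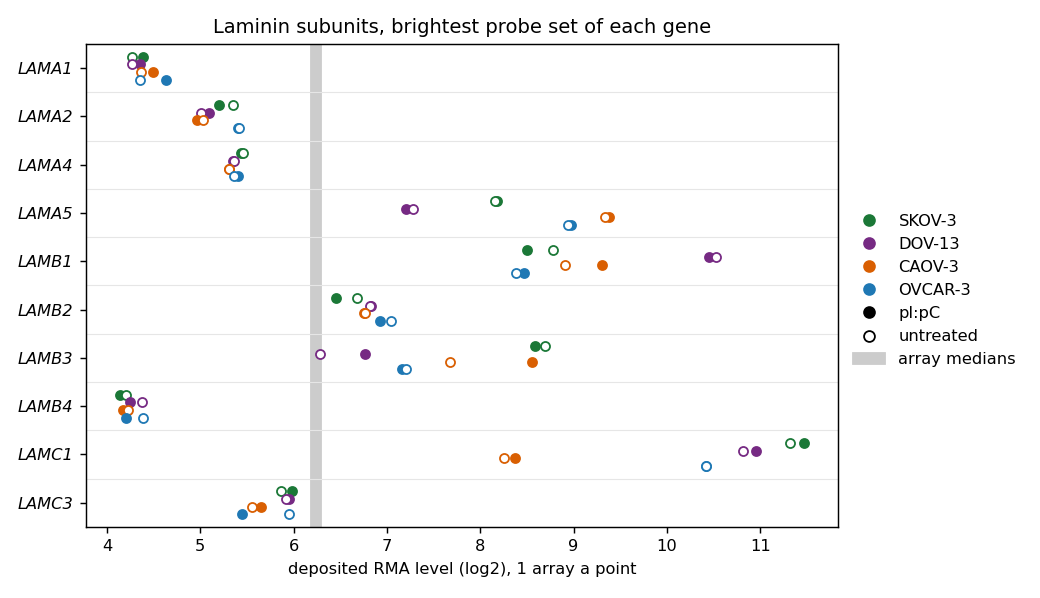
Deposited log2 level of each laminin gene (its brightest probe set) on each of the 8 arrays, with lines as colours, pI:pC arrays filled and untreated arrays open, and the array medians as a grey band. LAMC1 in CAOV-3 (8.38 with pI:pC, 8.25 untreated) lies below the other lines, and LAMA1, LAMA2, LAMA4, LAMB4 and LAMC3 lie below the band.

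**Figure D3:**
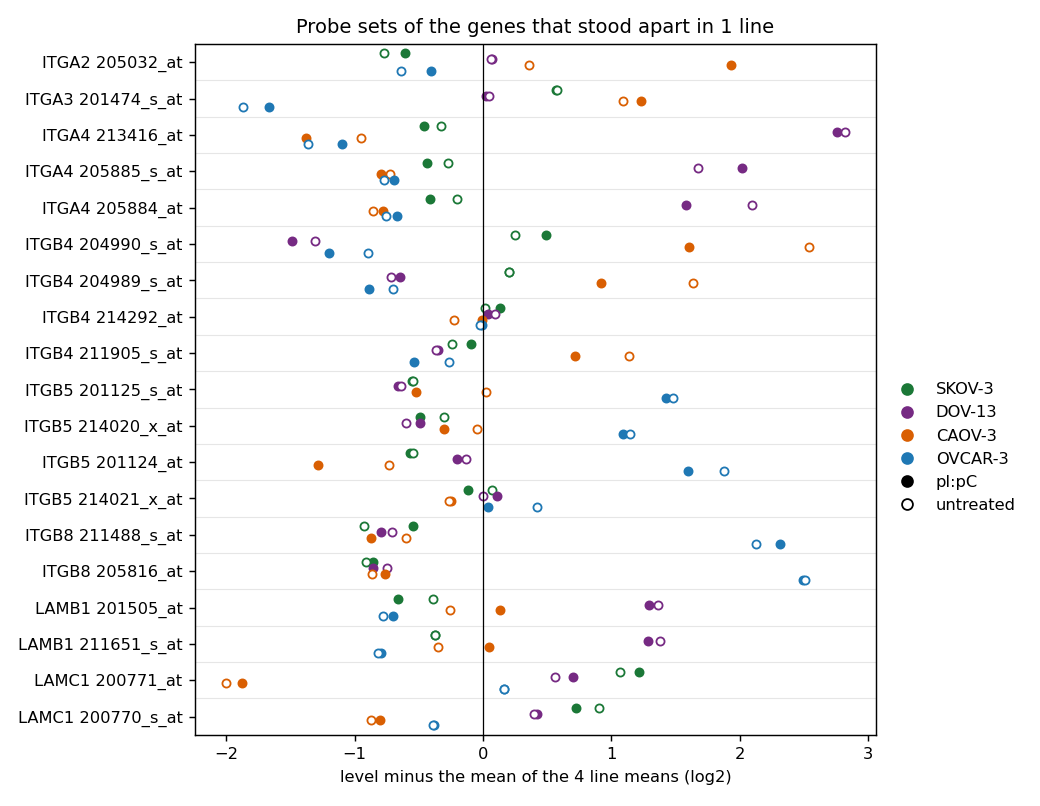
Probe sets of the genes that were highest or lowest in 1 line, each as its level minus the mean of the 4 line means (log2), with lines as colours, pI:pC arrays filled and untreated arrays open. All 3 ITGA4 probe sets stand apart in DOV-13 and both ITGB8 probe sets in OVCAR-3, while ITGB4 214292_at and ITGB5 214021_x_at do not separate.

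The question the design puts next is whether pI:pC changed these genes over the lines. With the cell line as a block, limma called 0 of the 68 members and 0% of all 22215 probe sets (smallest adjusted p = 0.996 for both). The interferon-induced genes IFIT1, MX1, ISG15 and IFI44L did not pass this test either (adjusted p = 0.996 by limma for each). IFIT1, for example, had a mean difference of 1.88 ± 1.88 (SD over the lines). A count of 0 therefore does not show that a gene failed to respond in single lines. At an unadjusted p under 0.05 there were 3 members (4.41%), against 3.85% of all. The median mean difference, pI:pC minus untreated, was -0.00093 over the members and 0.0065 over all probe sets. Positive mean differences were seen in 34 of 68 members, against 53.3% of all, and 8 members were higher and 6 lower in all 4 lines, against 6.74% and 4.77% of all. The SD of the difference over the lines had a median of 0.139 over the members and 0.143 over all.

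Within a line there is 1 array a condition and no test. A probe set was counted when its arrays differed by at least 1 on the log2 scale and the higher one reached the array median. In CAOV-3, 1 member was counted (0.86% of all), ITGA2. None was counted in SKOV-3 (0.018% of all), DOV-13 (0.027% of all) or OVCAR-3 (0.153% of all). Whatever their level, 8 members differed by 0.5 or more in CAOV-3 (4.55% of all) and 1 in DOV-13 (0.842% of all). OVCAR-3 had 1 (1.26% of all) and SKOV-3 had 0 (1.49% of all). Of these, ITGB5 201124_at in CAOV-3 and LAMC3 in OVCAR-3 were below the median on both arrays of the line.

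Of the members that differed by 0.5 or more in CAOV-3, the array with pI:pC was higher in ITGA2, LAMB3 and ITGA5 and lower in ITGB4, ITGAE and ITGB5. ITGA2 had 8.34 with pI:pC and 6.77 untreated, a difference of 1.57. LAMB3 had 8.56 with pI:pC and 7.68 untreated, a difference of 0.88, and ITGA5 had 7.46 with pI:pC and 6.63 untreated, a difference of 0.83. ITGB4 was at 8.72 with pI:pC and 9.65 untreated (204990_s_at, -0.94), and its probe set 204989_s_at at 6.79 with pI:pC and 7.50 untreated (-0.72). ITGAE was at 8.95 with pI:pC and 9.61 untreated (-0.66). The ITGB5 probe sets 201125_s_at and 201124_at each differed by -0.55. In OVCAR-3, the line with the larger differences of the interferon-induced genes above, the differences were 0.24 for ITGA2, -0.05 for LAMB3 and 0.10 for ITGA5. The untreated levels of those interferon-induced genes were already higher in CAOV-3 than in OVCAR-3. They were 9.27 and 5.19 for IFIT1, 9.31 and 6.33 for MX1, 10.20 and 8.01 for ISG15, and 7.84 and 4.22 for IFI44L. Whether the member differences go with those of the interferon-induced genes was not tested.

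Over the 4 lines, ITGA2 had a mean difference of 0.50 ± 0.72 (SD, n = 4 lines), higher in 4 of 4 lines, and 0.14 without CAOV-3. ITGA5 had 0.32 ± 0.34, higher in 4 of 4 lines (unadjusted p = 0.0296 by limma), and 0.16 without CAOV-3. LAMB3 had 0.30 ± 0.47, higher in 2 of 4 lines, and 0.11 without CAOV-3. These were the largest of the 10 members with the largest mean differences in size among those that met the level rule in at least 1 line. Dimmer members are not ranked there, such as LAMA1 (0.16 ± 0.09, unadjusted p = 0.0432 by limma) and ITGA7 209663_s_at (0.16 ± 0.15). ITGB4 had -0.29 ± 0.49 (204990_s_at) and -0.21 ± 0.36 (204989_s_at), which became -0.080 and -0.038 without CAOV-3. ITGB5 had -0.23 ± 0.24 (201124_at, lower in 4 of 4 lines, unadjusted p = 0.0422 by limma) and -0.16 ± 0.26 (201125_s_at), which became -0.13 and -0.029 without CAOV-3. ITGAE had -0.17 ± 0.35 and -0.0037 without CAOV-3, ITGA7 had 0.17 ± 0.21, and LAMC1 had 0.10 ± 0.07, higher in 4 of 4 lines. None of these passed (adjusted p of at least 0.996).

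**Figure D4:**
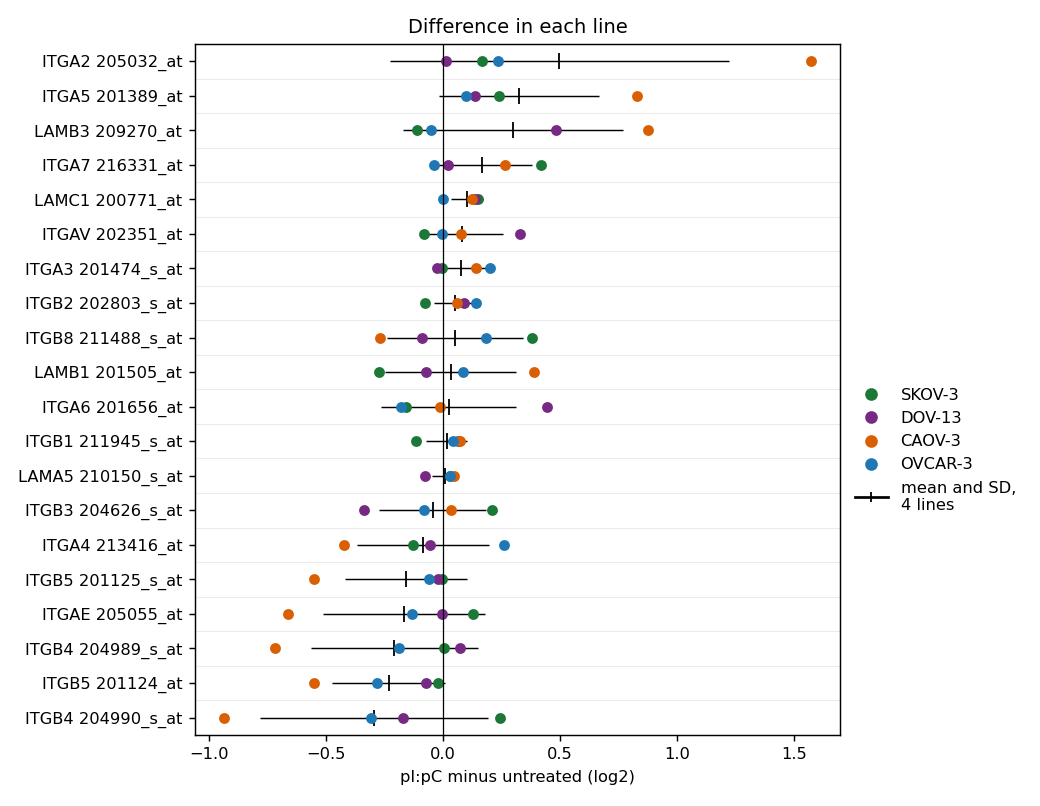
Difference between the pI:pC and the untreated array of each line (log2, positive where pI:pC is higher) for the 20 probe sets whose 8 array values were chosen to be given (standing apart in a line, counted within a line, among the 10 largest mean differences of members that met the level rule, or fixed by name), with lines as colours and the mean and SD over the 4 lines in black. CAOV-3 is the farthest point for ITGA2 (1.57), LAMB3 (0.88), ITGA5 (0.83) and ITGB4 (-0.94).

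The promoters of ITGA2, ITGA5 and LAMB3 are shown because these 3 genes were higher by 0.5 or more with pI:pC in CAOV-3. They come from RefSeq (GRCh38.p14), 250 bases before the start of transcription, 5′ to 3′ on the gene's strand, and capitals mark matches to an AP-1 site (TGANTCA), a GC box (GGGCGG), an NF-kB site or an ISRE core on either strand.
ITGA2, chr5:52989102-52989351, plus strand: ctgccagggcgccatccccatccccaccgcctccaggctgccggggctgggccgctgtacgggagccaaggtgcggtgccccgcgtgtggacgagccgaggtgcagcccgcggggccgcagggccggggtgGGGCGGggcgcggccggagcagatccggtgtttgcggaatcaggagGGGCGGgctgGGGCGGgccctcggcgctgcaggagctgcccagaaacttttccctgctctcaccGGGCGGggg
ITGA5, chr12:54419267-54419516, minus strand: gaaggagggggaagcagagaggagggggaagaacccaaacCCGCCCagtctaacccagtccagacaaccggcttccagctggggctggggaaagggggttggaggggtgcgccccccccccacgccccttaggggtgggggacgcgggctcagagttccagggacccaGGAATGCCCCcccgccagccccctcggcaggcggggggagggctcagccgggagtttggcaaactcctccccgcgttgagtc
LAMB3, chr1:209652426-209652675, minus strand: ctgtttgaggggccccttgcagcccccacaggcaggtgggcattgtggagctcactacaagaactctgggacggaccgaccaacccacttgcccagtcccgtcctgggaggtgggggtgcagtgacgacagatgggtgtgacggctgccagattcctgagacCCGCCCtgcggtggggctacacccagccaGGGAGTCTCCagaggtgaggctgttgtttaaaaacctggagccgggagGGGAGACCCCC
LAMB3, chr1:209651375-209651624, minus strand: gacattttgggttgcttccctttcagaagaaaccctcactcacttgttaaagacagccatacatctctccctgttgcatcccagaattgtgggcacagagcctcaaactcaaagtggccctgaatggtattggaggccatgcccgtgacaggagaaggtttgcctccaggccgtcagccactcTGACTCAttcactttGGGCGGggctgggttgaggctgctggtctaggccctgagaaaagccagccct

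The ITGA2 promoter holds 4 GC boxes. That of ITGA5 holds 1 NF-kB match, 82 bases before the start, and 1 GC box. LAMB3 has several annotated starts: the first promoter printed holds 3 NF-kB matches at 59, 11 and 10 bases before the start, the last pair overlapping, and the second holds 1 AP-1 match at 67 bases before it. Of the 30 promoters of 23 member genes found in the RefSeq table, 7 held an NF-kB match (23.3%), against 9.96% of all 35116 promoters. AP-1 was matched in 1 (3.33%, against 6.57%), the ISRE core in 1 (3.33%, against 3.02%) and the GC box in 16 (53.3%, against 42.6%). A match is a description of the letters, and several promoters belong to 1 gene. The first LAMB3 promoter printed overlaps another LAMB3 promoter (chr1:209652330-209652579) that holds the same NF-kB matches, so these letters were counted in both.

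Genes that act with the integrins were read as lists. Focal adhesion and integrin signalling genes (17 of 22 measured, 41 probe sets) differed among the lines by the F test in 35 probe sets (85.4%, against 65.5% of all). Hemidesmosome and tetraspanin partners (7 of 8 genes, 18 probe sets) did so in 15 (83.3%), basement membrane and ligand genes (14 of 15 genes, 34 probe sets) in 29 (85.3%) and other laminin receptors (3 of 4 genes, 5 probe sets) in 4 (80%). The share called rises with level: with only probe sets at or above the median mean level, it was 91.8% of all. The lists were not matched for level, so their shares are not read as particular to these genes. For pI:pC over the lines, 0 probe sets of these lists passed in either direction by limma (2, 2, 1 and 0 at an unadjusted p under 0.05), with median mean differences of 0.024, -0.0063, 0.044 and 0.029 in that order of lists.

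SKOV-3 was highest in FN1 (fibronectin, 4 probe sets), THBS1 (thrombospondin 1, 3 probe sets), NID2 and SPP1 (osteopontin). CAOV-3 was highest in NID1 (202007_at, but not 202008_s_at), which links laminin to collagen IV, and in the beta 2 integrin ligand ICAM1. OVCAR-3 was highest in TNC (tenascin C), AGRN (agrin) and CD47, an integrin-associated protein. For AGRN this held for 212285_s_at and 217419_x_at but not for 212283_at or 217410_at. Within CAOV-3 the list genes counted as higher with pI:pC were TNC (201645_at, 7.00 with pI:pC, 4.61 untreated), ICAM1 (202637_s_at, 10.65 with pI:pC, 8.85 untreated), the syndecan gene SDC4 (11.31 with pI:pC, 9.71 untreated) and CD47 (211075_s_at, 11.53 with pI:pC, 10.44 untreated). The other TNC probe set, 216005_at, had 3.88 with pI:pC and 3.95 untreated in CAOV-3. Of CD47, 213857_s_at differed by 0.95 in CAOV-3, 213856_at by 0.35 and 213055_at by 0.0031. In DOV-13 one ICAM1 probe set was counted (202638_s_at, 6.90 with pI:pC, 5.66 untreated), while 202637_s_at had 7.32 with pI:pC and 7.46 untreated and 215485_s_at had 5.54 with pI:pC and 5.24 untreated.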

How the data were processed

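The authors deposited log2 expression levels, which per the submitters' processing notes came from RMA. Its version is not given in the sources used here. Total RNA was extracted with Trizol and labelled with biotin per the labels' protocols. RMA compresses differences of dim probe sets. The deposited values were used as given, after leaving out 62 array controls (22215 probe sets tested). Names came from the platform annotation (19064 with 1 symbol, 1043 with several, 2108 with none); all 68 members have the same symbol in RefSeq. No column of another sample was in the table (0).

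Differences were fitted with limma 3.58.1 (lmFit, eBayes, R 4.3.3), two-sided, on all probe sets, with line and treatment as terms (3 residual degrees of freedom), and adjusted by Benjamini-Hochberg over all probe sets, and for line pairs over all 6 pairs as well (threshold 0.05). The fit was tested on simulated data. The cell line pairs the arrays, which come from the same line; deviations from the group means correlated within pairs at 0.936 to 0.965. Levels were given for the probe set with the highest mean of each gene. Values on all 8 arrays were given for members highest or lowest in a line, counted within a line, among the 10 largest mean differences of members that met the level rule in a line, or fixed by name; other members by range. A few further members (ITGA5, ITGA7 and ITGAE among the 10 largest, and LAMB2) are described by the same values. The members, gene lists and rules were chosen with earlier results of these data known. Alternatives were other normalization, filters, thresholds, eBayes settings, no block, and leaving out each line or array.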

Additional observations from a re-analysis of the deposited data

Results flagged for a closer look

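Dixon's test was run on the 4 lines of each group, where chance alone picks out about 1 in 20 groups. For the difference pI:pC minus untreated, 1 line lay apart from the other 3 in ITGA2 (CAOV-3, 1.57), ITGB5 201125_s_at (CAOV-3, -0.55), LAMC3 (OVCAR-3, -0.51), ITGB1 211945_s_at (SKOV-3, -0.115), LAMA5 (DOV-13, -0.077) and LAMC1 200771_at (OVCAR-3, 0.0013). The last 3 are small because the other lines lay close together, and LAMC3 is below the array median in every line.

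For the level on the pI:pC arrays, OVCAR-3 lay apart in ITGB8 (7.63 for 211488_s_at, 7.19 for 205816_at) and ITGB5 (11.22 for 201125_s_at, 8.62 for 214020_x_at). DOV-13 lay apart in ITGA4 (6.39 for 205885_s_at, 5.81 for 205884_at), CAOV-3 in ITGA7 216331_at (7.06) and LAMA4 202202_s_at (3.83), and SKOV-3 in ITGB3 215240_at (3.69). On the untreated arrays, OVCAR-3 lay apart in ITGB8 (7.45 for 211488_s_at, 7.21 for 205816_at) and CAOV-3 in ITGB4 211905_s_at (6.24). The LAMA4 and ITGB3 probe sets named here are dim on all arrays.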

How the results depend on the processing

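The count of members called for pI:pC was 0 under every alternative run, also without the replicate block (0, with 0 members and 19 of all probe sets at an unadjusted p under 0.05, and a smallest adjusted p of 1) and with each line left out (0 to 0, smallest adjusted p 0.225 without SKOV-3). Members called by the F test were 23 of 33 tested with 1 probe set a gene, where 69.7% of all were called. With only probe sets at or above the median mean level they were 20 of 20 tested, where 91.8% of all were called. At the 75th percentile of the array, 13 probe sets met the level rule in SKOV-3, 11 in DOV-13, 12 in CAOV-3 and 11 in OVCAR-3. With 1 probe set a gene, 2 members were highest in DOV-13, 2 in CAOV-3 and 2 in OVCAR-3, and with the level filter 2, 2 and 3. With a least difference of 0.5, 2 were highest in SKOV-3, 8 in DOV-13 and 7 in CAOV-3, 2 lowest in DOV-13 and 5 in OVCAR-3, and within lines 7 were counted in CAOV-3 and 1 in DOV-13. With a least difference of 2, 3 were highest in DOV-13, 0 in CAOV-3 and 2 in OVCAR-3, and 0 lowest in OVCAR-3. Leaving out 1 array gave 2 to 4 highest in CAOV-3 (2 without the untreated SKOV-3 or CAOV-3 array) and 1 to 2 lowest in OVCAR-3 (2 without its pI:pC array). For these alternative counts by the level, highest, lowest and within-line rules, the share of all probe sets was not computed. Whether they differ from the array as a whole is therefore not known. ITGA2 was no longer highest in CAOV-3 without the pI:pC array of DOV-13, CAOV-3 or OVCAR-3, without the untreated OVCAR-3 array, with trend and robust eBayes, or with no treatment term; the cause was not tested. The other counts (166) stayed within 1.5 times. Mean differences of the 20 named probe sets moved by under 1 SD in all 120 alternatives, and the sign turned in 12, of which 10 left out a line and 2 rescaled the arrays (LAMA5, -0.0055 centred and -0.0040 with quantile normalization). Signal over background is not given, so dim members could not be told from unexpressed ones.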
